A study of Mus musculus with 8 samples.

Results

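Interferon-stimulated genes are transcribed more strongly when a cell senses type I or type II interferon. The list held 40 mouse genes with this function, chosen with earlier results of these data known. Its shares beside those of all genes therefore describe the list and are no independent support. A gene was taken as measured through array probes whose RefSeq accession belongs to it. Of the 40, 38 were among the 22911 named genes on the array, and Mx1 and Mx2 were not found there by accession. The genes were followed in whole mouse kidneys at embryonic day 14.5. The mutant kidneys lacked Mdm4 in the cells reached by a Hoxb7Cre transgene, and the other kidneys were wild type. Hoxb7 drives Cre in the ureteric bud and the collecting ducts that grow from it, so most cell types of a whole kidney keep Mdm4. The labels do not say whether the wild-type kidneys carried the Cre transgene or a floxed allele. There were 4 mutant and 4 wild-type RNAs, hybridised as 4 pairs to 2-colour Agilent arrays, and each pair was run again with its dyes exchanged, which makes 8 arrays. A value with no other unit is a mutant-over-wild-type log2 ratio, the average of a pair's 2 arrays, and n = 4 pairs throughout. Whether 1 embryo or several gave each RNA is not in the labels. The p-values measure only how these pairs vary, and that variation may be technical.

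Interferons are secreted proteins that bind receptors at the cell surface and activate Janus kinases. The kinases phosphorylate STAT proteins, which enter the nucleus. STAT2 works there with IRF9 in a complex that binds the interferon-stimulated response element in the promoters of its target genes. The products restrict viruses by degrading RNA, halting translation, tagging proteins and presenting antigen, and several of them, such as IRF7 and USP18, feed back on the pathway. Many of these genes are also transcribed at a low level without infection, and tissue macrophages are among the cells that express them.

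An array held 62976 spots, of which 3671 were controls. Between 60.7% and 70.2% of the other spots exceeded background clearly in a channel, and 0 were saturated. Precision is limited by the number of arrays, and errors given with ± are standard errors of limma's fit. The median standard error was 0.09 for the list, against 0.07 for all 16013 genes tested. Of the 38 genes 35 passed the filter on dim probes, and 31 of these were well above background in all 16 channels. Oas3 and Ifit1 were not well above background in any channel, and the best probe of Zbp1 was so in 2 of 8 mutant channels and 0 of 8 wild-type channels. Usp18 passed through the mutant channels, with 7 of 8 against 3 of 8 wild-type channels, so the main counts are also given without it. Averaged over Ddx3y, Kdm5d and Eif2s3y, which are Y-linked, the log2 ratio was 3.1, 1.53, -1.72 and 3.1 in pairs 1 to 4. Pair 3 thus had less RNA of these genes in the mutant, and the other pairs had more. Mdm4 itself was at -0.03, -0.06, -0.28 and -0.35 in pairs 1 to 4 on its brightest probe, which cannot check the labels where most cells keep the gene. As a check of the tissue, markers were measured for ureteric epithelium (15 of 15 tested), nephron progenitors and early nephrons (14 of 14) and stroma (12 of 12). The ureteric markers had means below 0 for 15 of 15 genes, with pair medians of -0.64, -0.33, 0.03 and -0.58, and the stromal markers had means above 0 for 11 of 12, with pair medians of 0.36, 0.27, 0.14 and 0.40. Over all genes 53.9% had a mean above 0. The part of these markers in the results below was not tested. In whole kidneys fewer cells of a type and less RNA per cell cannot be told apart.

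Most of the interferon-stimulated genes were somewhat higher in the mutant, but no single gene passed the test. Their mean log2 ratio was above 0 for 30 of 35 genes, against 53.9% of all genes tested, and the median was 0.15 against 0.01 over all genes. After adjustment limma called 0 of the 35 at an adjusted p of 0.05, as it did 0% of all genes, and the adjusted p of the 35 ran from 0.304 to 0.979. At an unadjusted p under 0.05, 14 were higher, against 7.01% of all genes, and 0 were lower, against 3.6%. Without Usp18, 29 of 34 genes had a mean above 0, and 13 of 34 were higher at an unadjusted p under 0.05. In all 4 pairs 12 of 35 were higher, against 12.1% of all genes, and 0 were lower, against 7.84%. Usp18 was not among these 12, which were Tap1, Ifi44, Ifi27, Irf7, Oasl2, Xaf1, Rtp4, Parp14, Gbp2, B2m, Gbp3 and Dhx58. The count at an unadjusted p under 0.05 rested on pairs 3 and 4, being 5 without pair 3 and 7 without pair 4, where all genes gave 5.81% and 4.7%. The 5 were Ifi44, Irf7, Rtp4, Ifi27 and Tap1.

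**Figure D1:**
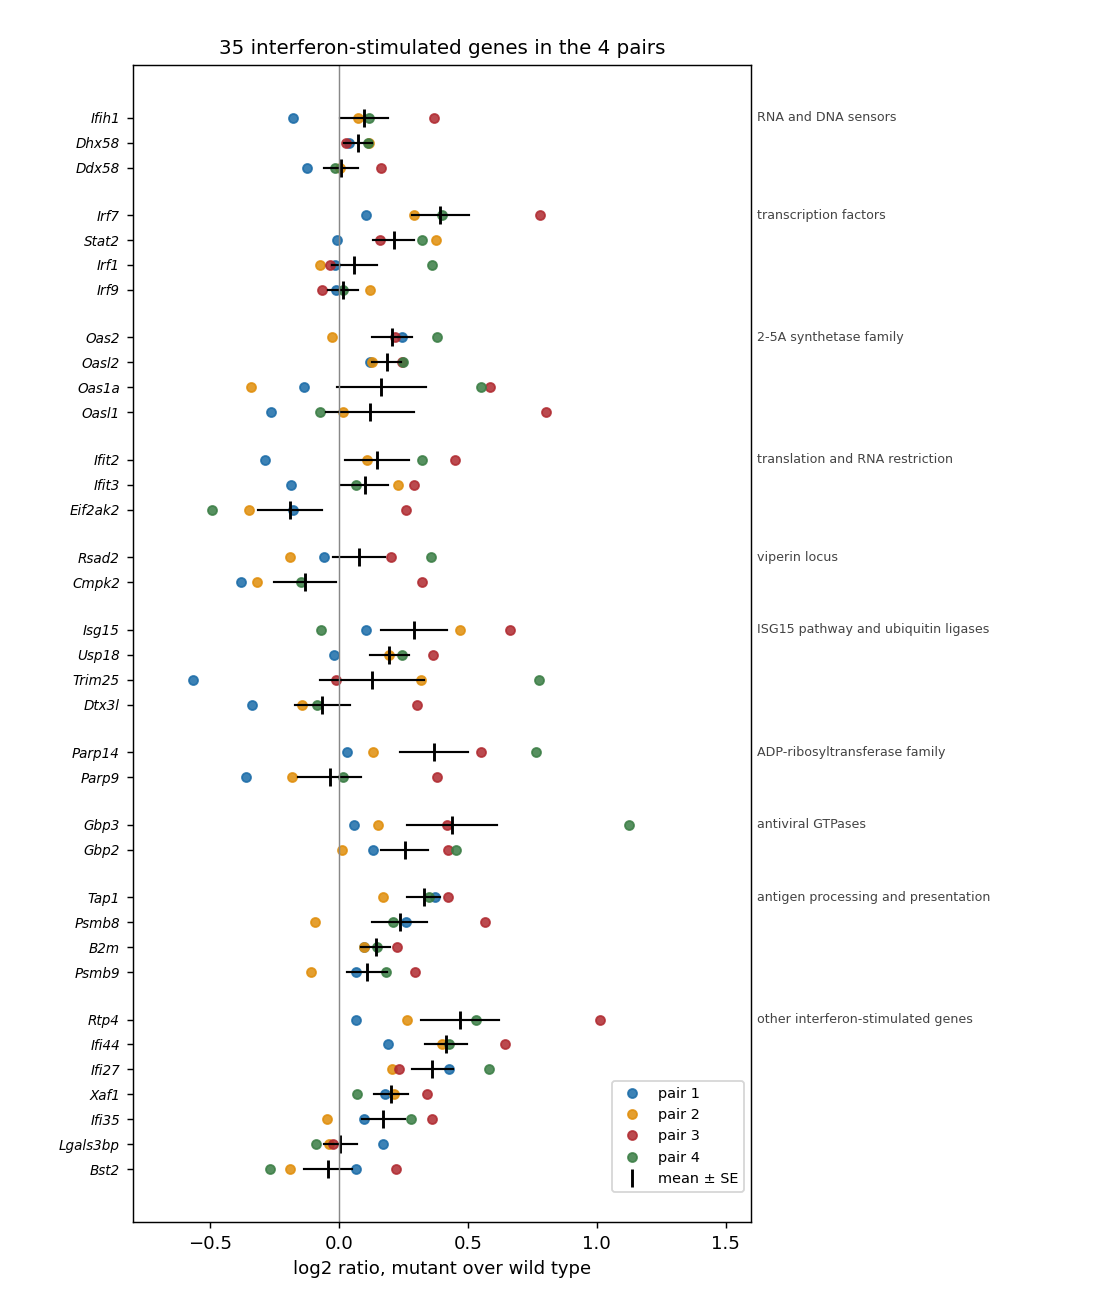
Log2 ratio of mutant over wild type for the measured interferon-stimulated genes, with 1 point for each of the 4 pairs and the mean over pairs with its standard error. Tap1, Ifi44, Ifi27 and Irf7 lie above 0 in all 4 pairs, and the points of pair 3 are the highest for 22 of 35 genes.

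The difference was uneven between the pairs. The median of the 35 genes was 0.04, 0.10, 0.32 and 0.24 in pairs 1 to 4, against -0.01, -0.0026, 0.04 and 0.03 over all genes. In pair 1, 19 of 35 lay above 0 (46.5% of all genes), in pair 2 22 (49.2%), in pair 3 31 (60.7%) and in pair 4 27 (54.5%). The ratio was highest in pair 3 for 22 of 35 genes, against 30.8% of all genes, and in pair 4 for 9. Without Usp18 pair 3 was highest for 21 of 34.

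The levels of the single RNAs show where this unevenness lies. The 4 mutant RNAs were alike in the list median, while the wild-type RNAs of pairs 3 and 4 were low. Relative to the mean of the 8 RNAs, the median deviation of the list was 0.09, 0.07, 0.05 and 0.06 on the log2 scale in mutant RNAs 1 to 4. In wild-type RNAs 1 to 4 it was 0.07, 0.01, -0.29 and -0.19. Over all genes the same medians lay between -0.02 and 0.02 in the mutant RNAs and between -0.04 and 0.03 in the wild-type RNAs. The wild-type RNA of pair 3 was the lowest of the 8 for 24 of 35 genes, against 19.7% of all genes. That of pair 4 was the lowest for 6 (16.8%), that of pair 2 for 2 (7.31%) and that of pair 1 for 0 (8.65%). The SD over the 4 RNAs was larger in wild type than in mutant for 26 of 35 genes, against 47% of all genes. The median SD of the list was 0.125 in the mutant and 0.213 in wild type, against 0.130 and 0.120 over all genes. Without Usp18 the counts of 24 and 26 are of 34 genes. Quantile normalisation of the 16 channels together was chosen after seeing the data. It gave 27 of 35 genes with the larger SD in wild type, against 47.8% of all genes. The deviation was then -0.31 and -0.18 in wild-type RNAs 3 and 4. The levels of 4 Y-linked genes, Eif2s3y, Kdm5d, Ddx3y and Uty, were also summed. On the log2 scale the sum was 11.69, 9.89, 9.75 and 11.80 in mutant RNAs 1 to 4. In wild-type RNAs 1 to 4 it was 8.70, 8.45, 11.54 and 8.66. Wild-type RNA 3, lowest for the interferon-stimulated genes, was the highest wild-type RNA in this sum, while wild-type RNA 4 was not. With the Y-linked difference, the mean ratio of Eif2s3y, Kdm5d and Ddx3y, as a covariate, the list median was 0.21. By limma 11 of 35 genes were then higher at an unadjusted p under 0.05, against 4.22% of all genes.

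**Figure D2:**
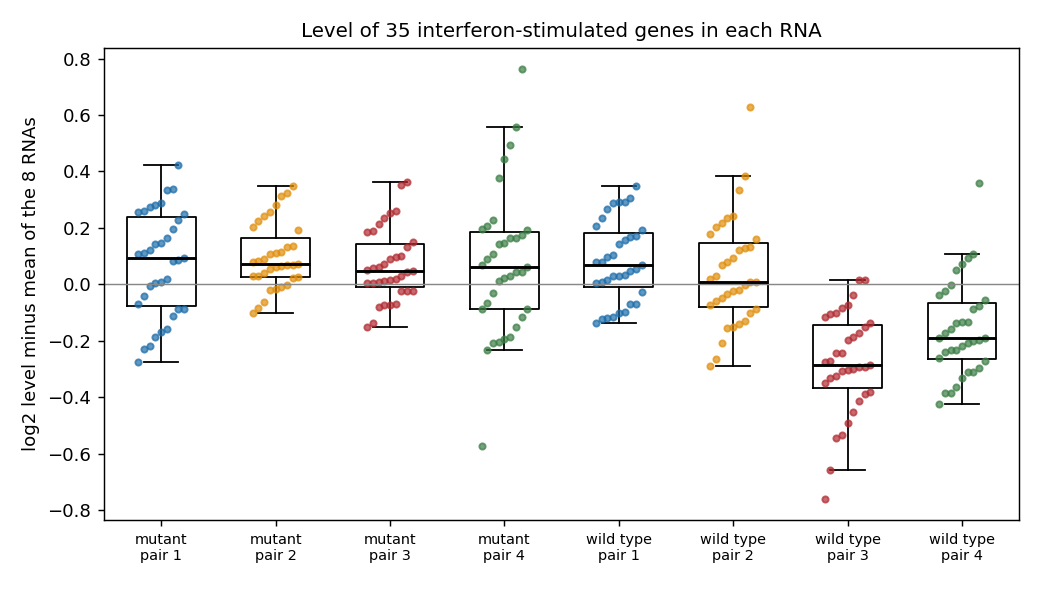
Deviation of each interferon-stimulated gene from its mean over the 8 RNAs, on the log2 scale, for the 4 mutant RNAs on the left and the 4 wild-type RNAs on the right. The medians of the wild-type RNAs of pairs 3 and 4 are -0.29 and -0.19, and those of the mutant RNAs lie between 0.05 and 0.09.

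Promoters were searched for elements of the interferon response. The list holds genes that respond to interferon, so the share with such an element describes the list and not the mutant. The core of the interferon-stimulated response element, taken as GAAA, any 2 bases and GAAA, was sought on both strands from 250 bases before to 50 bases after each gene's start (RefSeq, GRCm38.p6). It occurred in 14 of the 30 list genes with a window in the table, against 3.99% of 27025 genes. The gamma-activated site, to which STAT dimers bind, taken as TTC, any 3 bases and GAA on both strands, occurred in 7 of 30, against 9.55%. In the 250 bases before the start alone, the first element occurred in 11 of 30, against 3.46%, and the second in 6 of 30, against 8.13%. The windows that held the first element were those of Oas1a, Oas3, Ifit1, Ifit3, Isg15, Stat2, Ddx58, Ifih1, Bst2, Gbp2, Gbp3, Rsad2, Eif2ak2 and B2m, with the match after the start in Ddx58, Ifih1 and Eif2ak2. The genes with no window in the table were Rtp4, Oas2, Usp18, Mx1, Mx2, Dhx58, Ifi27, Parp9, Parp14 and Zbp1. A match is a description of the letters in this window. The 250 bases before the start, printed below, belong to the 4 genes of smallest p that hold the first element, which is in capitals. That of Gbp2 lies at chr3:142620413-142620662, that of Stat2 at chr10:128270248-128270497, that of B2m at chr2:122147437-122147686 and that of Gbp3 at chr3:142559794-142560043, all on the + strand.
Gbp2: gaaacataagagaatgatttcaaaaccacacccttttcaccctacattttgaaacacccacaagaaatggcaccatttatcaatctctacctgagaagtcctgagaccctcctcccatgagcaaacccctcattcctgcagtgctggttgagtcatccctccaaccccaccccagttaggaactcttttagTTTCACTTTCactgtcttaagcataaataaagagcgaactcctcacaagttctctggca
Stat2: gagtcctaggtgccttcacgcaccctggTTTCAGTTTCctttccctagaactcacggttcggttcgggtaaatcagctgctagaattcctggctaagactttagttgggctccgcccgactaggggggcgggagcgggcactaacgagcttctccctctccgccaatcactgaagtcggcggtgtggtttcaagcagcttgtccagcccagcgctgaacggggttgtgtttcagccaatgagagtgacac
B2m: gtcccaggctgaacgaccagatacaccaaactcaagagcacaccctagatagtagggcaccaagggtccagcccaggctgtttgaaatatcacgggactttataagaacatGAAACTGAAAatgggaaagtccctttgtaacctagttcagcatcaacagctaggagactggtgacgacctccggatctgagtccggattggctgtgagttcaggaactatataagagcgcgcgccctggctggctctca
Gbp3: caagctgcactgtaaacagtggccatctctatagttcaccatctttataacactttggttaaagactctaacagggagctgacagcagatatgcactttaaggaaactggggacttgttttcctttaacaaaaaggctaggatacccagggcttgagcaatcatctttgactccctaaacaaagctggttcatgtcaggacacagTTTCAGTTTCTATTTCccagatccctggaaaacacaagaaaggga
In Gbp3 the capitals span 2 overlapping matches.

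Among the transcription factors, Irf7, which amplifies interferon production, had log2 ratios of 0.11, 0.29, 0.78 and 0.40 in pairs 1 to 4 (mean 0.39 ± 0.11, SE, 1.31-fold, limma adjusted p = 0.404). Its level on the log2 intensity scale was 8.90, 8.85, 8.88 and 8.73 in the mutant RNAs, against 8.80, 8.55, 8.10 and 8.33 in the wild-type RNAs. The mutant RNAs lay within a narrow band, and the groups overlapped through wild-type RNA 1. Stat2, the partner of IRF9, had a mean ratio of 0.21 ± 0.08 and was higher in 3 of 4 pairs. Irf9 itself was at 0.02, and Irf1, a factor of the type II response, at 0.06, with -0.01, -0.07, -0.04 and 0.36 in pairs 1 to 4. Both means lay close to 0. In pair 4 the other kept probe of Irf1 gave -0.15.

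Among the sensors of foreign RNA, Ifih1, which encodes MDA5, had a mean ratio of 0.10, Dhx58, which encodes LGP2, 0.07, and Ddx58, which encodes RIG-I, 0.01. Dhx58 was higher in all 4 pairs, although by little. None of these 3 reached an unadjusted p of 0.05.

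The oligoadenylate synthetases make the second messenger that activates RNase L. All 4 tested list genes of this family had a mean ratio above 0, against 53.9% of all genes. Oas1c, a gene of the second list described below, was at -0.11. Oasl2, a relative of the family, had levels of 7.40, 7.47, 7.47 and 7.63 in the mutant RNAs and 7.28, 7.34, 7.23 and 7.38 in the wild-type RNAs, which did not overlap. Its mean ratio was 0.19 ± 0.06. Oas2 was at 0.20 ± 0.08. Oas1a gave -0.14, -0.34, 0.59 and 0.55 in pairs 1 to 4, and Oasl1, another relative, gave -0.26, 0.01, 0.80 and -0.07. Both had ratios of either sign, and the groups overlapped. Without pair 3 the mean of Oasl1 was -0.11, and its other kept probe gave a mean of -0.03 over the 4 pairs.

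Of the genes that restrict translation, Ifit2 and Ifit3, which encode tetratricopeptide proteins, had mean ratios of 0.15 and 0.10. The level of Ifit2 was 8.66, 8.76, 8.74 and 8.71 in the mutant RNAs (SD 0.043), against 8.95, 8.65, 8.29 and 8.38 in the wild-type RNAs (SD 0.295). The mutant values hardly varied, and the wild-type values surrounded them. Eif2ak2, which encodes the kinase PKR that halts translation, was the list gene with the lowest mean, at -0.19 ± 0.12, with -0.18, -0.35, 0.26 and -0.49 in pairs 1 to 4. Pair 3 was again the highest. Cmpk2, a mitochondrial nucleotide kinase, at -0.13, and Rsad2, which encodes the antiviral enzyme viperin, at 0.08, are neighbours in the genome. Cmpk2 was lower in pairs 1, 2 and 4 and 0.32 in pair 3.

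Isg15, a ubiquitin-like protein attached to other proteins, had ratios of 0.10, 0.47, 0.66 and -0.07 (mean 0.29 ± 0.13). Its level was 9.10, 9.30, 9.35 and 8.79 in the mutant RNAs and 9.0, 8.83, 8.69 and 8.86 in the wild-type RNAs. Mutant RNA 4 was the lowest mutant value, and it lay within the wild-type range. Usp18, the protease that removes ISG15, was at 0.20 ± 0.08, with the limit on its wild-type channels given above. Trim25, a ubiquitin ligase, gave -0.57, 0.32, -0.01 and 0.77 on its brightest probe and -0.09, 0.27, -0.05 and 0.33 on its other probe. Dtx3l, a ligase that pairs with PARP9, was at -0.06, and Parp9 was at -0.04. Parp14, which encodes an ADP-ribosyltransferase, had a mean of 0.37 ± 0.13 and was higher in all 4 pairs, with 0.03, 0.13, 0.55 and 0.76.

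The guanylate-binding proteins are GTPases that attack the vacuoles of pathogens. Gbp2 had a mean ratio of 0.26 ± 0.09 and Gbp3 of 0.44 ± 0.18. The level of Gbp3 was 7.32, 7.23, 7.26 and 7.99 in the mutant RNAs and 7.26, 7.08, 6.84 and 6.87 in the wild-type RNAs. Mutant RNA 4 stood far above the others, and the ratio was 1.12 in pair 4. Members of the Gbp, Oas and Ifit families have close copies, and cross-hybridisation between copies was not tested.

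All 4 list genes of antigen presentation had a mean ratio above 0, against 53.9% of all genes. Related genes of the second list, described below, lay on either side of 0. Tap2 was at -0.04, Psme1 at -0.02, Psmb10 at -0.0078 and Tapbp at 0.01. H2-D1 was at 0.04, H2-T23 at 0.08 and H2-K1 at 0.25. Tap1, a peptide transporter of the endoplasmic reticulum, had levels of 8.54, 8.42, 8.37 and 8.46 in the mutant RNAs and 8.17, 8.25, 7.95 and 8.11 in the wild-type RNAs. These did not overlap, and the mean ratio was 0.33 ± 0.06 (1.26-fold, limma adjusted p = 0.304). The sign was the same on all 8 arrays, and its other probe gave a mean of 0.12. B2m, the light chain of MHC class I, was higher in every pair by 0.10, 0.10, 0.23 and 0.15 (mean 0.14 ± 0.06). Psmb8, a subunit of the immunoproteasome, was at 0.24 ± 0.11, and Psmb9, another subunit, at 0.11.

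The remaining genes held some of the larger ratios. Ifi44, of uncertain function, had levels of 7.26, 7.40, 7.40 and 7.33 in the mutant RNAs and 7.07, 7.0, 6.76 and 6.91 in the wild-type RNAs, with a mean ratio of 0.41 ± 0.08 (1.33-fold, limma adjusted p = 0.304). Ifi27 had 12.32, 12.13, 12.16 and 12.22 in the mutant RNAs and 11.89, 11.93, 11.93 and 11.64 in the wild-type RNAs (mean ratio 0.36 ± 0.08). Neither gene overlapped between the groups. The list held 4 genes whose mutant levels were all above their wild-type levels, Tap1, Ifi44, Ifi27 and Oasl2, against 3.3% of all genes. Rtp4, which helps receptors reach the cell surface, had the largest mean of the list as processed here, 0.47 ± 0.15 (1.38-fold). Its ratios were 0.07, 0.26, 1.01 and 0.53 in pairs 1 to 4. Its level was 8.65, 8.56, 8.57 and 8.42 in the mutant RNAs and 8.58, 8.29, 7.56 and 7.89 in the wild-type RNAs. Wild-type RNAs 3 and 4 were the low ones. Xaf1, a pro-apoptotic gene, was at 0.20 ± 0.06 and Ifi35 at 0.17. More than 1 probe was kept for 9 genes of the list, and the probes gave means of opposite sign for Irf1, Oasl1 and Rsad2. Bst2, which tethers budding viruses, was at -0.04 and Lgals3bp, a secreted glycoprotein, at 0.01.

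**Figure D3:**
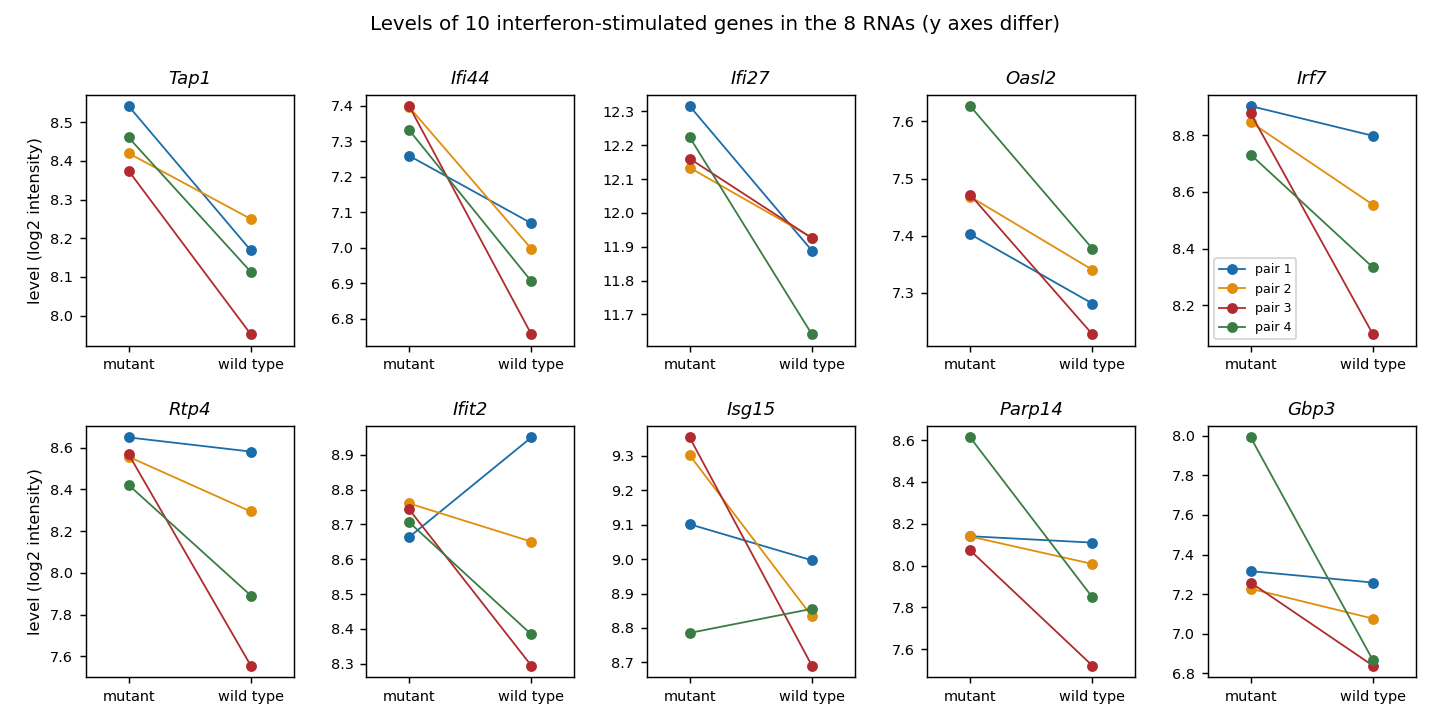
Levels on the log2 intensity scale of 10 interferon-stimulated genes in the 4 mutant RNAs, on the left of each panel, and the 4 wild-type RNAs, with each pair joined by a line. For Tap1, Ifi44, Ifi27 and Oasl2 the mutant values lie above the wild-type values, and for Rtp4 and Irf7 wild-type RNAs 3 and 4 are low.

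The list median lay above 0 in both dye orientations. It was 0.14 where Cy5 labelled the mutant RNA and 0.19 where Cy3 did. The orientations gave opposite mean signs for 7 of 35 genes, against 51.3% of all genes, and 6 genes, Tap1, Ifi44, Ifi27, Irf7, Xaf1 and B2m, were higher on all 8 arrays. All arrays lay on 1 slide, and dye orientation went with the position on it, so these cannot be told apart.

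Interferons themselves were scarcely measured. Of 16 on the array 8 were tested, with 4 higher, a share near the 53.9% of all genes, and 4 lower. By limma 0 were at an unadjusted p under 0.05, and 0 at an adjusted p of 0.05. The probe of Ifng was not well above background in any channel, and that of Ifnb1 was so in 1 of 8 mutant channels and 0 of 8 wild-type channels. Of 18 receptor and transducer genes 16 had a mean above 0, against 53.9% of all genes, with a median of 0.10. By limma 3 were higher at an unadjusted p under 0.05, against 7.01% of all genes. Among them were Socs1, which inhibits Janus kinases, at 0.20 ± 0.06, and Ptpn6, a phosphatase, at 0.14 ± 0.05. For the receptor chains, Ifnar2 was at 0.09, Ifngr1 at 0.13 and Ifngr2 at 0.03, and for the kinases Jak1 was at 0.12 and Tyk2 at 0.01. Ifnar1 had -0.27 ± 0.19 on its brightest probe and -0.11 and 0.04 on its other probes, so its probes disagree. Among 22 genes of nucleic acid sensing the median was 0.0079. A mean above 0 was found for 12, a share near the 53.9% of all genes, which is no result about this list. By limma 3 of the 22 were higher at an unadjusted p under 0.05, against 7.01% of all genes. These were Irf5 at 0.21 ± 0.06, Irf8 at 0.16 ± 0.06 and Tbk1, the kinase that activates IRF3, at 0.14 ± 0.06. Irf3 was at 0.07.

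A second list of 58 tested interferon-stimulated genes, outside the first, had 43 means above 0, against 53.9% of all genes. Its median was 0.07, and its pair medians were 0.07, -0.04, 0.16 and 0.14. At an unadjusted p under 0.05, 9 were higher, against 7.01% of all genes, and 0 lower. In all 4 pairs 7 of 58 were higher, a share near the 12.1% of all genes, which is no result about this list. Iigp1, an immunity-related GTPase, was at 0.51 ± 0.10 (limma adjusted p = 0.304). Ifi204, a DNA-binding protein, was at 0.44 ± 0.10, Ifi27l2a at 0.35 and the chemokine Cxcl10 at 0.29. Parp12 was at 0.21, Helz2 at 0.19, Phf11d at 0.16 and Trim30a at 0.15. Phf11d passed the filter through the mutant, with 6 of 8 mutant channels and 4 of 8 wild-type channels above background. Without it 8 of 57 genes were higher at an unadjusted p under 0.05 and 6 in all 4 pairs.

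Markers of macrophages and other leukocytes were higher as well. Of 22 tested markers 21 had a mean above 0, against 53.9% of all genes, 8 were higher at an unadjusted p under 0.05, against 7.01%, and the median was 0.23. Cd53 passed the filter through the mutant, with 6 of 8 mutant channels and 2 of 8 wild-type channels, and without it 20 of 21 had a mean above 0. Tyrobp was at 0.34, Aif1 at 0.27 and Fcgr1 at 0.25. Their pair medians were 0.31, 0.01, 0.17 and 0.34, so they were high in pair 1, where the interferon-stimulated genes were near 0. The summed level of the marker list on the log2 scale ran from 14.34 to 14.70 in the mutant RNAs and from 14.11 to 14.39 in the wild-type RNAs. In wild-type RNAs 1 to 4 the sum was 14.39, 14.34, 14.35 and 14.11, so by that measure RNA 3 was not low. The median deviation was 0.42, 0.01, 0.0014 and 0.04 in mutant RNAs 1 to 4. In wild-type RNAs 1 to 4 it was 0.08, -0.02, -0.19 and -0.30, so by this measure RNAs 3 and 4 were both low. Spi1, the remaining marker, was above background in 2 of 8 mutant channels and 1 of 8 wild-type channels. Of 5 tested neutrophil genes, S100a8 and S100a9 had ratios of 3.05 and 3.88 in pair 4, while Mpo was at 0.03, Camp at -0.01 and Elane at -0.25 there, and the list median in that pair was 0.03. In pairs 1 to 3 S100a8 was at 0.85, 0.35 and 0.29, and S100a9 at 1.01, 0.56 and 0.71. Over the 4 pairs S100a8 had a mean of 1.13 ± 0.45 and S100a9 of 1.54 ± 0.55. Mpo had a mean of 0.28, Camp of 0.08 and Elane of -0.15. S100a8, S100a9 and Mpo were above 0 in all 4 pairs, and Elane was below 0 in all 4 pairs. Of 12 lymphoid and plasmacytoid dendritic markers 5 were tested, and Cd3g and Ncr1 were not above background in any channel. Cd3e, a T cell receptor chain, had -0.32, -0.39, -0.11 and -0.49 in pairs 1 to 4 (mean -0.33 ± 0.08, limma adjusted p = 0.373). Siglech, a marker of plasmacytoid dendritic cells, was at -0.10. Its mean level was 15.61 in the mutant and 15.72 in wild type, above 12.89 and 12.75 for B2m. Whether the probes of Siglech and Cd3e report dendritic and T cells was not tested. Cd79b was at 0.0021. Nkg7 and Cd79a were at 0.06 and -0.0084. Both passed the filter through the mutant, with 6 of 8 channels against 4 of 8 in wild type. The part of these cells in the interferon-stimulated genes was not tested.

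**Figure D4:**
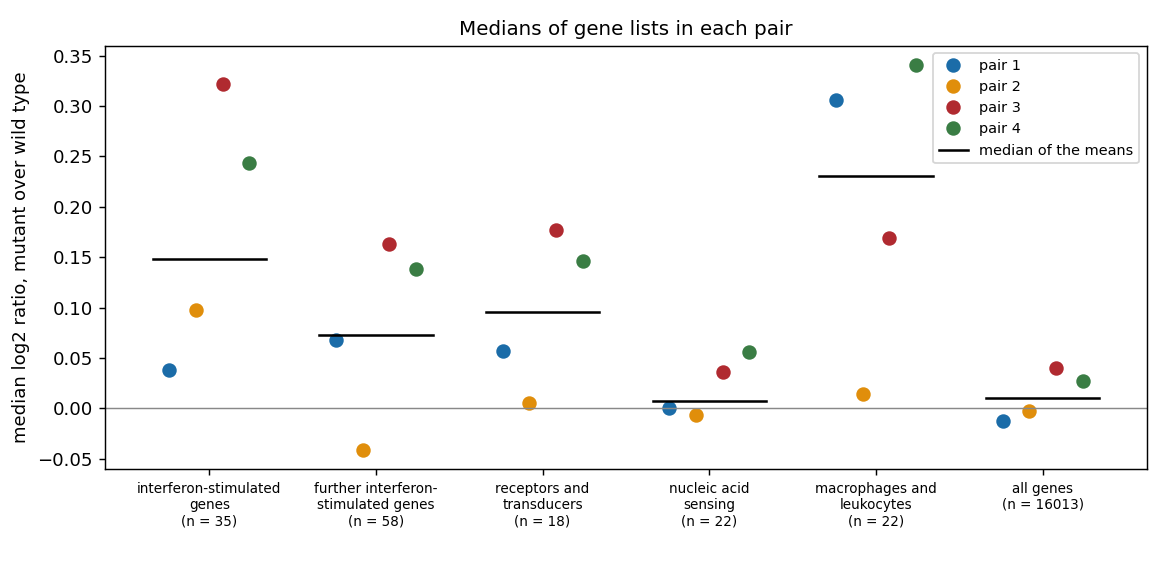
Median log2 ratio of mutant over wild type in each of the 4 pairs for the interferon-stimulated genes and the compared lists. The interferon-stimulated genes have medians of 0.04, 0.10, 0.32 and 0.24, and the macrophage and leukocyte markers 0.31, 0.01, 0.17 and 0.34.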

How the data were processed

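RNA of whole kidneys from 4 mutant and 4 wild-type samples was compared on 8 arrays. Per the labels, 100 ng of total RNA was labelled with Cy3 or Cy5. The deposited scanner files hold median spot and background intensity per channel, with the flags of Agilent Feature Extraction, version 10.7.3.1 per the file headers and 8.5.1.1 per the submitters' processing notes. The deposited series table of log10 ratios differed from the scanner files by at most 0.005.

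The analysis used R 4.3.3 and limma 3.58.1. Background was corrected by normexp (offset 50), and arrays were normalised by loess, with 3671 control spots and 95 to 156 outlier spots per array at weight 0 and then left out. Ratios were turned to mutant over wild type, and the 2 arrays of a pair averaged. A probe needed 6 of 8 channels of a genotype well above background, which kept 34594 of 56605. A gene is its brightest kept probe, named by RefSeq accession. lmFit and eBayes gave a two-sided test of each mean ratio, with p-values adjusted by Benjamini-Hochberg across 16013 genes. Levels come from single channels after loess and Aquantile normalisation, averaged over the dyes. Of these steps only the limma fit was tested on simulated data, drawn as pair ratios.

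The members and lists were chosen with earlier results of these data known. Every member on the array is named. Of the other lists, the receptors and kinases above, genes at an unadjusted p under 0.05, and those of smallest p are named. A few genes covered by this rule are not reported. Pairing comes from the labels, and each pair's RNAs shared arrays. Alternatives covered background correction, normalisation, probe choice, the filter, dye orientation, the fit and leaving out each pair.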

Additional observations from a re-analysis of the deposited data

Results flagged for a closer look

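Of 105 groups of 4 values examined, 6 had a sample far from the others, where chance gives about 1 in 20. The ratio of Irf1 on its brightest probe was 0.36 in pair 4, against -0.07 to -0.01 in the other pairs. The other kept probe of Irf1 gave -0.15 in pair 4. The level of Irf9 was 10.88 in mutant RNA 4, against 10.36 to 10.42 in the other mutant RNAs, and it was 10.86 in wild-type RNA 4. Gbp3 was at 7.99 in mutant RNA 4, against 7.23 to 7.32 in the others, and Parp14 at 8.61, against 8.07 to 8.14. The level of Ifi27 was 11.64 in wild-type RNA 4, against 11.89 to 11.93 in the other wild-type RNAs. Eif2ak2 was at 10.28 in wild-type RNA 2, against 9.55 to 9.58 in the others. These are levels on the log2 intensity scale, except the ratios of Irf1.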

How the results depend on the processing

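No interferon-stimulated gene was called under any of the settings run, and the smallest adjusted p was 0.0583, under median centring instead of loess. Over all genes there were 42 calls with median centring, 39 with 8 arrays, a dye coefficient and the pair as replicate block, and 6 with no replicate block and unpaired levels, against 0 as reported and 0 without each pair. The blocked fit gave 16 list genes higher at an unadjusted p under 0.05 (8.39% of all genes). That count was 9 with unpaired levels (4.29% of all genes), 8 on the Cy5-mutant arrays alone (10.5%) and 5 to 14 without each pair (4.7% to 7.05%), against 14 as reported (7.01%). Under median centring the median was 0.22 for the list and 0.14 for all genes, with 33 of 35 list genes and 81.8% of all genes above 0. With the Y-linked difference as covariate the list median was 0.21 and the count 11. Leaving out each pair gave a list median of 0.11 to 0.21 and 12 to 17 genes higher in all remaining pairs, where all genes gave 16.7% to 23.1%. The cause of these shifts was not tested.

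Of the values of single genes under an alternative, 525 kept their direction and 31 had the opposite sign. Median centring gave Bst2 0.12, Parp9 0.018 and Dtx3l 0.024. Each pair centred on the median gene gave Ddx58 -0.0065 and Lgals3bp -0.0069. Cy5-mutant arrays alone gave Ddx58 -0.13 and Dhx58 -0.040. Cy3-mutant arrays alone gave Irf1 -0.030, Irf9 -0.015, Rsad2 -0.074, Parp9 0.22 and Lgals3bp -0.018. The Y-linked covariate gave Irf1 -0.0052, Irf9 -0.0070, Bst2 0.059, Cmpk2 0.052, Parp9 0.14, Dtx3l 0.096 and Lgals3bp -0.014. Leaving out each pair gave -0.11 to 0.25 for Oasl1, -0.041 to 0.10 for Irf1, -0.020 to 0.043 for Irf9, -0.046 to 0.051 for Ddx58 and -0.13 to 0.033 for Bst2. It gave -0.015 to 0.17 for Rsad2, -0.086 to 0.36 for Trim25, -0.18 to 0.072 for Parp9, -0.19 to 0.027 for Dtx3l and -0.049 to 0.037 for Lgals3bp. The size and order of the largest means also depended on the processing. With no background correction Ifi44 was at 0.64, Gbp3 at 0.62 and Rtp4 at 0.55. Agilent processed signals gave Ifi44 1.22, Gbp3 1.045 and Rtp4 0.71, and gave Usp18 0.73.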
